A study of Saccharomyces cerevisiae with 21 samples.

Results

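The genes described here encode the de novo purine pathway of Saccharomyces cerevisiae, the route that builds IMP and then AMP from simple precursors. The list was drawn up by function, with earlier results of these data known. It leaves out ADE16, the isozyme of ADE17, and the folate enzyme ADE3, which are described separately. It holds 10 genes: ADE1, ADE2, ADE4, ADE5,7, ADE6, ADE8, ADE12, ADE13, ADE17 and MTD1. Of these, 9 had a named probe on both array types, out of 5379 named genes on the first array type and 5365 on the second. ADE5,7 matched no named probe and was not analysed here.

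Yeast makes purines by assembling the ring on phosphoribosyl pyrophosphate (PRPP), using amino acids, bicarbonate and formyl groups carried by folate. The ADE genes are a classical co-regulated set: the transcription factors Bas1 and Pho2 activate them together when purines are scarce, and adenine in the medium turns them down. Loss of ADE1 or ADE2 is known for the red pigment that accumulates in the mutant colonies.

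The study compared irradiated cells of strain S288C, the laboratory reference strain, with unirradiated cells of the same strain on 2-colour arrays, 3 arrays for each of 4 radiations. The groups were thermal neutrons at 20.8 Gy from a reactor beam, given over 20 h at a total of 17 mGy/min of which thermal neutrons made up 1.0 to 2.0 mGy/min, carbon ions of 290 MeV/u at 25 Gy, given over 10 min at 3 Gy/min, gamma rays at 17 Gy from a caesium source, and fast neutrons at 20.3 Gy, which were part of a total of 21.4 Gy at 0.064 Gy/min. The labels give the gamma dose rate as 1.4 Gy/min but the exposure as 20.5 h, and the fast neutron exposure as both 336 min and 19 h. All groups, controls included, came from 50 ml cultures that were chilled in saline, 5 ml for carbon ions and 2 ml for the others, and then recovered for 40 min at 25 C in rich medium (YPD) before RNA was taken, so each ratio describes recovering cells. For both neutron groups the irradiated cells sat in cuvettes, whereas their controls were held in flasks. Kind of radiation, dose, exposure time and facility changed together and cannot be told apart.

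Each value is the authors' log2 ratio of irradiated over control, so a negative value is a lower transcript level in irradiated cells. The irradiated RNA carried Cy5 and the control RNA Cy3 on all 12 arrays, and the direction of the ratio was read from that channel order. HUG1, RNR2 and RNR4, which cells with damaged DNA switch on, had positive ratios on each of the 12 arrays. Because no array had the dyes exchanged, a gene's dye preference and its response cannot be told apart in a single ratio, whereas differences between radiations on the same array type do not carry it. RNA came from whole cultures, in which fewer cells of a kind and less RNA per cell cannot be told apart. Depth does not apply to arrays, and precision here is limited by 3 arrays a group. Changes were called with limma at a Benjamini-Hochberg adjusted p under 0.05 over all genes of the comparison.

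Among the 9 measured genes, each that passed the test after a radiation was lower in irradiated cells. ADE16, a purine gene outside the list, rose after thermal neutrons (mean 0.55, limma adjusted p = 0.0048). The number that passed was highest after gamma rays, at 6, where 22.4 percent of all genes fell. After fast neutrons 5 passed, where only 5.92 percent of all genes fell. After thermal neutrons 3 of the 9 measured genes fell and 0 rose, where 21.2 percent of all genes tested fell and 19.9 percent rose. After carbon ions 3 fell and 0 rose, against 11.9 percent of all genes falling and 9.7 percent rising. After gamma rays 6 fell and 0 rose, against 22.4 percent of all genes falling and 17.6 percent rising. After fast neutrons 5 fell and 0 rose, against 5.92 percent of all genes falling and 5.06 percent rising, on the other array type. The median log2 ratio of the 9 genes was -0.20 after thermal neutrons, where the median of all genes was -0.04. It was -0.27 after carbon ions, beside -0.04 for all genes, and -0.54 after gamma rays, beside -0.06 for all genes. After fast neutrons it was -0.65, with 0.00 for all genes. Genes below 0 on all 3 arrays numbered 7, 6, 8 and 7 of the 9 after thermal neutrons, carbon ions, gamma rays and fast neutrons, beside 36.7, 31.5, 35.4 and 27.3 percent of all genes. The fast neutron calls rest on each of 2 arrays: without replicate 1 or without replicate 3 none of the 9 genes passed the test (4 and 5 of them had an unadjusted p under 0.05), while the number of genes called overall went to 68 and 62 in place of 542, and 7 of the 9 passed without replicate 2, where 1652 genes were called overall. After thermal neutrons 1 of the 9 passed without replicate 2 or without replicate 3, and after carbon ions 0 passed without replicate 2 and 1 without replicate 3.

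**Figure D1:**
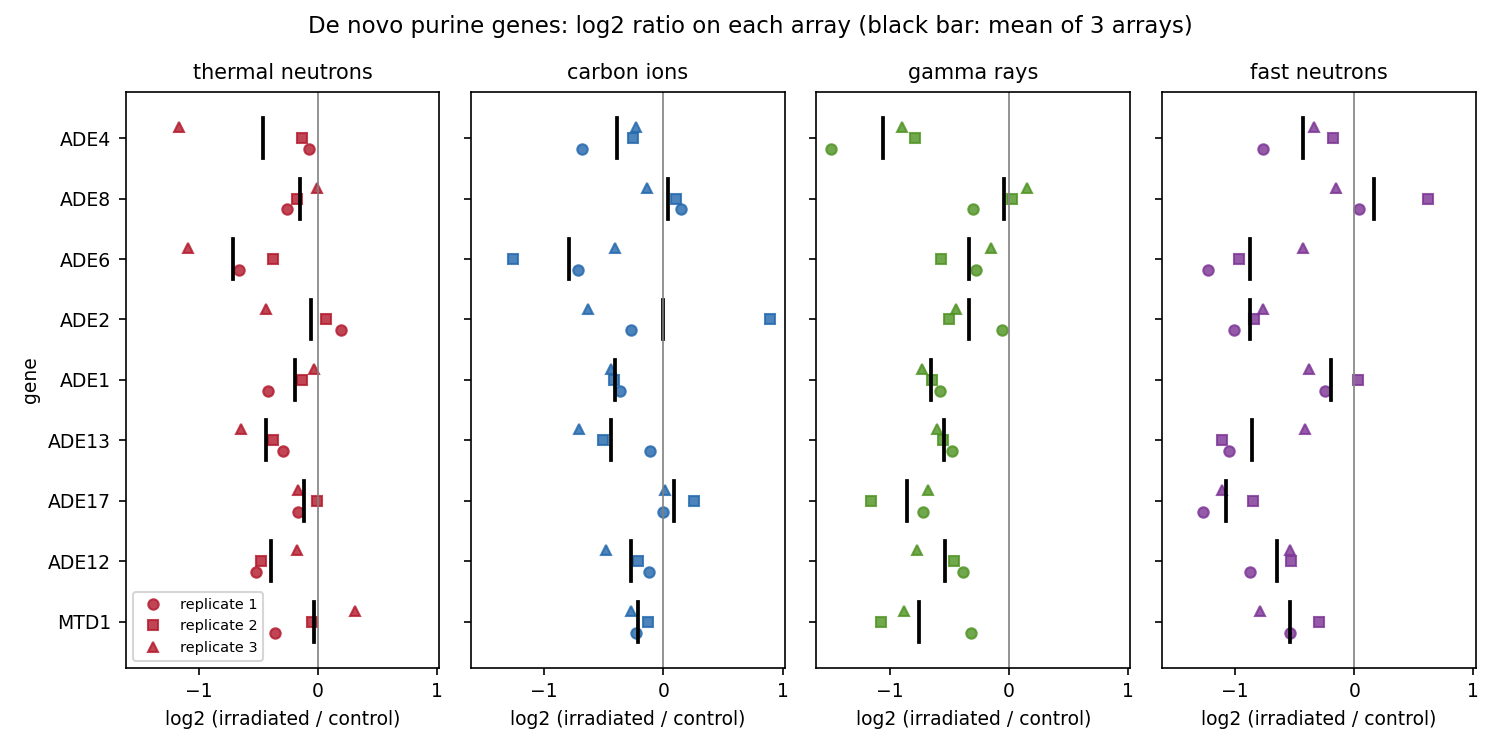
Log2 ratio (irradiated over control) of the 9 measured purine genes, listed from the first step of the pathway downwards, on each of 3 arrays for thermal neutrons, carbon ions, gamma rays and fast neutrons. Points are arrays and black bars are means of 3. ADE4, ADE6, ADE12 and ADE13 lie left of 0 on all 12 arrays. ADE17 lies far left after gamma rays and fast neutrons but near 0 after thermal neutrons and carbon ions.

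The entry to the pathway had its lowest mean after gamma rays, but no difference from gamma rays passed the test. The limma adjusted p was 0.13 for thermal neutrons minus gamma rays and 0.14 for carbon ions minus gamma rays. Fast neutrons were not tested against gamma rays. ADE4 (YMR300C) encodes the PRPP amidotransferase, which makes the committed first step and is the enzyme that purine nucleotides inhibit. Its log2 ratio was -0.08, -0.14 and -1.17 after thermal neutrons, -0.68, -0.26 and -0.23 after carbon ions, and -1.49, -0.79 and -0.89 after gamma rays. Fast neutron arrays gave -0.76, -0.18 and -0.34. ADE4 was thus below 0 on all 12 arrays, and thermal neutron replicate 3 stood well below its own group, inside the gamma range. The fall after gamma rays averaged -1.06 ± 0.38 (SD, n = 3; limma adjusted p = 0.0026), a level 0.48 times that of the control. The other group means were -0.46 ± 0.61 after thermal neutrons (adjusted p = 0.1), -0.39 ± 0.25 after carbon ions (adjusted p = 0.2) and -0.43 ± 0.30 after fast neutrons (adjusted p = 0.13). Without replicate 3 the thermal neutron mean was -0.11.

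ADE8 (YDR408C), the glycinamide ribonucleotide transformylase that adds the first formyl group, was below 0 on the fewest arrays. Thermal neutron arrays gave -0.26, -0.18 and -0.01, and carbon ion arrays 0.15, 0.11 and -0.14. Gamma ray arrays gave -0.30, 0.03 and 0.16, and fast neutron arrays 0.04, 0.62 and -0.16. It lay below 0 on 6 of 12 arrays, and its 4 group means, between -0.15 and 0.17, did not pass the test.

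ADE6 (YGR061C), the formylglycinamidine ribonucleotide synthetase, had its highest mean after gamma rays, but no difference between radiations on the first array type passed the test. The limma adjusted p was 0.25 for thermal neutrons minus gamma rays, 0.22 for carbon ions minus gamma rays and 0.87 for thermal neutrons minus carbon ions. ADE6 measured -0.66, -0.38 and -1.09 after thermal neutrons, -0.72, -1.26 and -0.40 after carbon ions, and -0.28, -0.57 and -0.15 after gamma rays. After fast neutrons it measured -1.23, -0.96 and -0.43. Every array was below 0, and the gamma ray values overlapped those of each other group. ADE6 fell after thermal neutrons (mean -0.71 ± 0.36, adjusted p = 0.0085), carbon ions (-0.79 ± 0.43, adjusted p = 0.011) and fast neutrons (-0.87 ± 0.41, adjusted p = 0.033). Its gamma ray mean of -0.33 ± 0.21 did not pass the test (adjusted p = 0.16).

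The steps that close the first ring and carry it to SAICAR belong to ADE5,7, ADE2 and ADE1. ADE2 (YOR128C), the AIR carboxylase, had the widest spread within a group, after carbon ions (SD 0.80, n = 3). It gave 0.19, 0.07 and -0.43 after thermal neutrons, -0.28, 0.90 and -0.63 after carbon ions, and -0.06, -0.50 and -0.45 after gamma rays. The carbon ion values of replicates 2 and 3, the highest and the lowest of that group, came from the high-power scan alone. Fast neutron arrays gave -1.01, -0.84 and -0.76, all 3 below every array of the other radiations, and only that fall passed the test (mean -0.87 ± 0.12, adjusted p = 0.02). The 2 array types were tested apart, so this gap between them was not tested.

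ADE1 (YAR015W), the SAICAR synthetase, fell after gamma rays and carbon ions. It gave -0.42, -0.14 and -0.03 after thermal neutrons, -0.36, -0.42 and -0.44 after carbon ions, and -0.58, -0.65 and -0.73 after gamma rays. The gamma ray arrays lay below every carbon ion and thermal neutron array, and the carbon ion arrays overlapped the lowest thermal neutron array. The means were -0.65 ± 0.07 after gamma rays (adjusted p = 0.0012) and -0.41 ± 0.04 after carbon ions (adjusted p = 0.027). The thermal neutron mean of -0.20 ± 0.20 (adjusted p = 0.19) and the fast neutron mean of -0.20 ± 0.21, from arrays at -0.24, 0.03 and -0.38 (adjusted p = 0.42), did not pass.

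ADE13 (YLR359W), the adenylosuccinate lyase, which acts once on the way to IMP and again between IMP and AMP, was the only one of the 9 genes to pass the test after all 4 radiations. Its values were -0.29, -0.38 and -0.65 after thermal neutrons, -0.11, -0.51 and -0.71 after carbon ions, and -0.48, -0.56 and -0.60 after gamma rays. Fast neutrons gave -1.05, -1.11 and -0.41. The groups overlapped, and all 12 values were negative. Mean falls were -0.44 ± 0.19 after thermal neutrons (adjusted p = 0.022), -0.44 ± 0.30 after carbon ions (adjusted p = 0.037), -0.54 ± 0.06 after gamma rays (adjusted p = 0.0076) and -0.86 ± 0.39 after fast neutrons (adjusted p = 0.033). The carbon ion call held in 6 of 12 other settings.

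ADE17 (YMR120C), which with its isozyme ADE16 carries out the last formyl transfer and closes the second ring to give IMP, had the largest differences between radiations among the 9 genes. Thermal neutron arrays read -0.17, -0.01 and -0.17, carbon ion arrays -0.00, 0.26 and 0.01, and gamma ray arrays -0.72, -1.16 and -0.68. The gamma ray arrays lay well below all thermal neutron and carbon ion arrays. Fast neutron arrays read -1.27, -0.85 and -1.11. ADE17 fell after gamma rays (mean -0.85 ± 0.27, adjusted p = 0.00049, 0.554 times the control) and after fast neutrons (-1.08 ± 0.21, adjusted p = 0.015, 0.474 times the control). Its means of -0.12 ± 0.09 after thermal neutrons (adjusted p = 0.48) and 0.09 ± 0.15 after carbon ions (adjusted p = 0.64) did not pass.

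ADE12 (YNL220W), the adenylosuccinate synthase that commits IMP to AMP, gave -0.52, -0.48 and -0.18 after thermal neutrons, -0.12, -0.22 and -0.48 after carbon ions, and -0.38, -0.46 and -0.77 after gamma rays. It gave -0.88, -0.53 and -0.54 after fast neutrons. All 12 arrays were below 0 and the groups on the first array type overlapped. It fell after thermal neutrons (mean -0.39 ± 0.19, adjusted p = 0.031), gamma rays (-0.54 ± 0.21, adjusted p = 0.0068) and fast neutrons (-0.65 ± 0.20, adjusted p = 0.041). The carbon ion mean was -0.27 ± 0.19 (adjusted p = 0.15).

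MTD1 (YKR080W) encodes the cytosolic NAD-dependent methylenetetrahydrofolate dehydrogenase, an enzyme of the folate supply that is regulated with the ADE genes. It gave -0.36, -0.05 and 0.31 after thermal neutrons, -0.23, -0.13 and -0.28 after carbon ions, and -0.32, -1.07 and -0.88 after gamma rays. Gamma ray replicates 2 and 3 were far below all other arrays of this array type, and gamma ray replicate 1 was inside the thermal neutron range. Fast neutron arrays gave -0.54, -0.30 and -0.79. Only the gamma ray fall passed (mean -0.76 ± 0.39, adjusted p = 0.0037). The means were -0.03 ± 0.34 after thermal neutrons (adjusted p = 0.88), -0.21 ± 0.07 after carbon ions (adjusted p = 0.36) and -0.54 ± 0.25 after fast neutrons (adjusted p = 0.068).

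The radiations on the first array type were then set against each other gene by gene. Thermal neutrons minus gamma rays was positive and past the threshold for ADE17, MTD1 and ADE1, 3 of 9 genes, where 20.4 percent of all genes tested were called higher. Carbon ions minus gamma rays passed for ADE17 alone, 1 of 9, where 11.4 percent of all genes were called higher. Thermal neutrons minus carbon ions passed for 0 of 9 by limma, with 0 of 9 at an unadjusted p under 0.05 as well, where 10.2 percent of all genes were called in either direction. These contrasts share the gamma ray or carbon ion arrays and are not independent of each other.

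ADE17 was 0.74 log2 units higher after thermal neutrons than after gamma rays (95% interval 0.35 to 1.13, adjusted p = 0.0075) and 0.94 higher after carbon ions than after gamma rays (0.55 to 1.33, adjusted p = 0.0053). Both differences held under 15 of 15 other settings. MTD1 was 0.72 higher after thermal neutrons than after gamma rays (0.22 to 1.22, adjusted p = 0.027), and ADE1 0.46 higher (0.11 to 0.81, adjusted p = 0.042). The MTD1 call held in 11 of 15 settings and the ADE1 call in 6 of 15, and 1 of the 9 genes passed without gamma ray replicate 2, gamma ray replicate 3 or thermal neutron replicate 2. ADE4 averaged 0.60 and 0.67 higher after thermal neutrons and carbon ions than after gamma rays, with adjusted p values of 0.13 and 0.14. ADE6 had the opposite sign, at -0.38 after thermal neutrons relative to gamma rays (-0.93 to 0.17, adjusted p = 0.25) and -0.46 after carbon ions relative to gamma rays (-1.01 to 0.09, adjusted p = 0.22). Between thermal neutrons and carbon ions the intervals were widest for ADE2, from -0.80 to 0.69, and those of ADE1 and ADE13 ran from -0.14 to 0.56 and from -0.41 to 0.42.

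**Figure D2:**
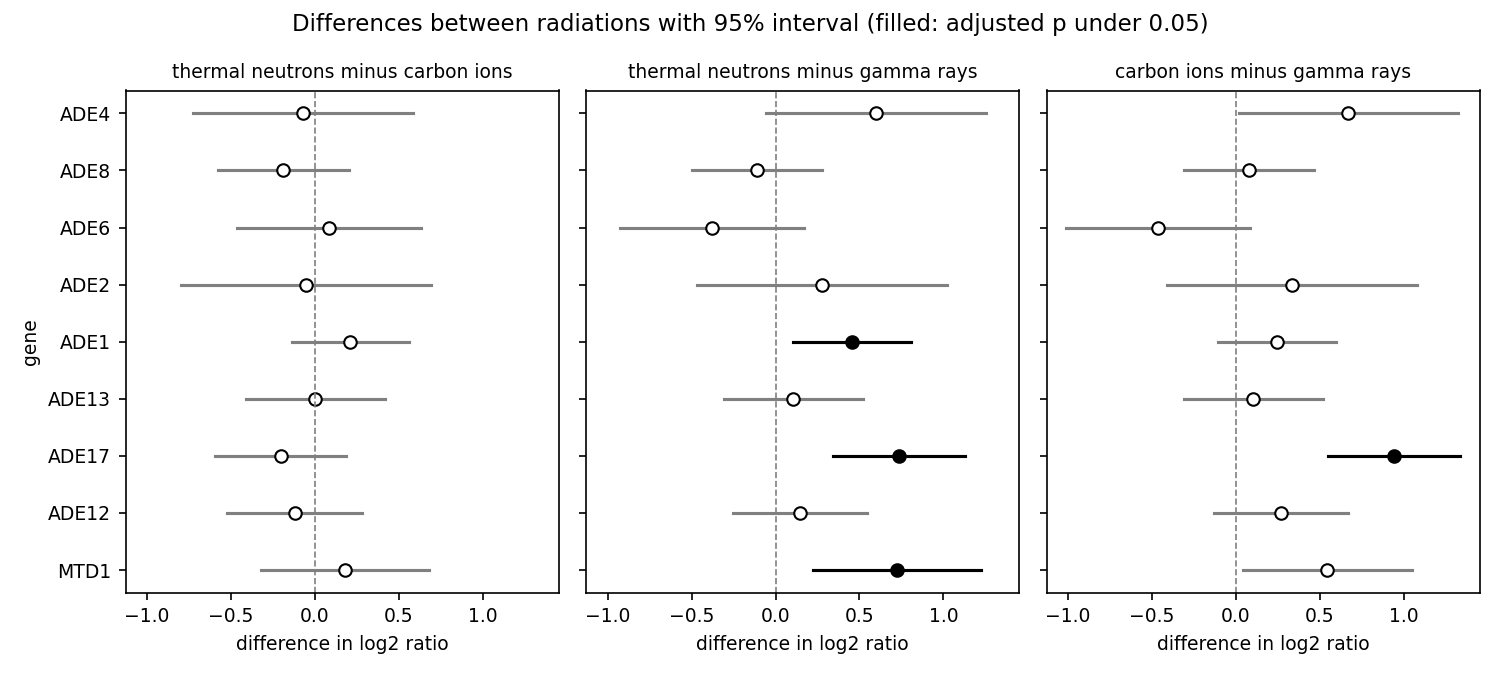
Differences in log2 ratio of the 9 measured purine genes, for thermal neutrons minus carbon ions, thermal neutrons minus gamma rays and carbon ions minus gamma rays, with 95% intervals from the fit of 9 arrays. Filled points passed the adjusted p threshold of 0.05: ADE17 in both comparisons with gamma rays, and ADE1 and MTD1 in that of thermal neutrons.

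Seen array by array, carbon ion arrays lay wholly above gamma ray arrays for ADE1, ADE4, ADE17 and MTD1, 4 of 9 genes, where this held for 20.2 percent of all genes. Thermal neutron arrays lay wholly above gamma ray arrays for ADE1 and ADE17, 2 of 9, where it held for 27.8 percent of all genes. ADE17 was the 1 gene whose thermal neutron arrays lay wholly below its carbon ion arrays, where 14.7 percent of all genes did so. Transcripts of the mitochondrial genome, which lack the poly(A) tails by which the RNA was purified, also differed between the groups: their median log2 ratio was -0.45 after thermal neutrons (5 measured), -0.47 after carbon ions (5 measured), 0.34 after gamma rays (3 measured) and -1.01 after fast neutrons (4 measured). Their part in the purine gene differences was not tested.

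The 9 genes did not share a single profile. Over the 9 arrays of the first type, as a description, ADE17 followed the mean of the other members most closely (Pearson r 0.878), and the closest pair was ADE1 and MTD1 (r 0.887). ADE6 ran against the mean of the others (r -0.651). The points share arrays and fall into 3 groups by radiation.

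The genes whose profile over the same 9 arrays was most like the mean profile of the 9 purine genes, YDC1, RIE1, STE14, TPI1, TFS1, SNU23, INM1 and GIM3, had r between 0.936 and 0.973 among 4694 genes. Their levels relative to control differed from those of the purine genes: TFS1, for instance, averaged 1.33 ± 0.21 after thermal neutrons, 1.56 ± 0.15 after carbon ions and 0.03 ± 0.10 after gamma rays, and INM1 averaged -0.28 ± 0.29 after thermal neutrons, -0.28 ± 0.26 after carbon ions and -1.32 ± 0.12 after gamma rays. Of the genes of the other folate and de novo steps, ADE3 was the nearest to the mean profile, at r 0.873 (rank 44).

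Around the core pathway, enzymes of folate supply and late de novo steps were called in both directions. After thermal neutrons 1 of 6 fell and 1 rose, after carbon ions 2 fell, after gamma rays 3 fell and after fast neutrons 1 fell. Of all genes, 21.2, 11.9, 22.4 and 5.92 percent fell after thermal neutrons, carbon ions, gamma rays and fast neutrons. In the same order 19.9, 9.7, 17.6 and 5.06 percent of all genes rose. ADE16 (YLR028C), the isozyme of ADE17, passed the test after thermal neutrons, where ADE17 did not. Its arrays read 0.70, 0.61 and 0.33 after thermal neutrons, 0.22, 0.03 and 0.30 after carbon ions, and 0.10, -0.21 and 0.10 after gamma rays. Fast neutron arrays read -0.33, 0.05 and -0.17. After gamma rays and fast neutrons, where ADE17 fell, ADE16 did not pass the test (limma adjusted p = 0.98 and 0.54). ADE16 rose after thermal neutrons (mean 0.55 ± 0.19, adjusted p = 0.0048) and was 0.55 higher there than after gamma rays (adjusted p = 0.027). ADE16 and ADE17 are closely similar genes, and how far their array probes separate them is not known from the files.

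ADE3 (YGR204W), the cytosolic trifunctional C1-tetrahydrofolate synthase that makes the formyl donor, averaged 0.11 ± 0.28 after thermal neutrons, -0.16 ± 0.10 after carbon ions and -0.62 ± 0.17 after gamma rays, where it fell (adjusted p = 0.0033). It was 0.73 higher after thermal neutrons than after gamma rays (adjusted p = 0.0095). FOL3, the dihydrofolate synthetase, fell after carbon ions (-0.50 ± 0.11, adjusted p = 0.014) and gamma rays (-0.78 ± 0.18, adjusted p = 0.00052). MIS1, the mitochondrial counterpart of ADE3, had the reverse order, falling after thermal neutrons (-0.81 ± 0.39, adjusted p = 0.0011) and carbon ions (-0.66 ± 0.12, adjusted p = 0.0089) and measuring 0.24 ± 0.06 after gamma rays (adjusted p = 0.19). It also fell after fast neutrons (-0.90 ± 0.37, adjusted p = 0.027).

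**Figure D3:**
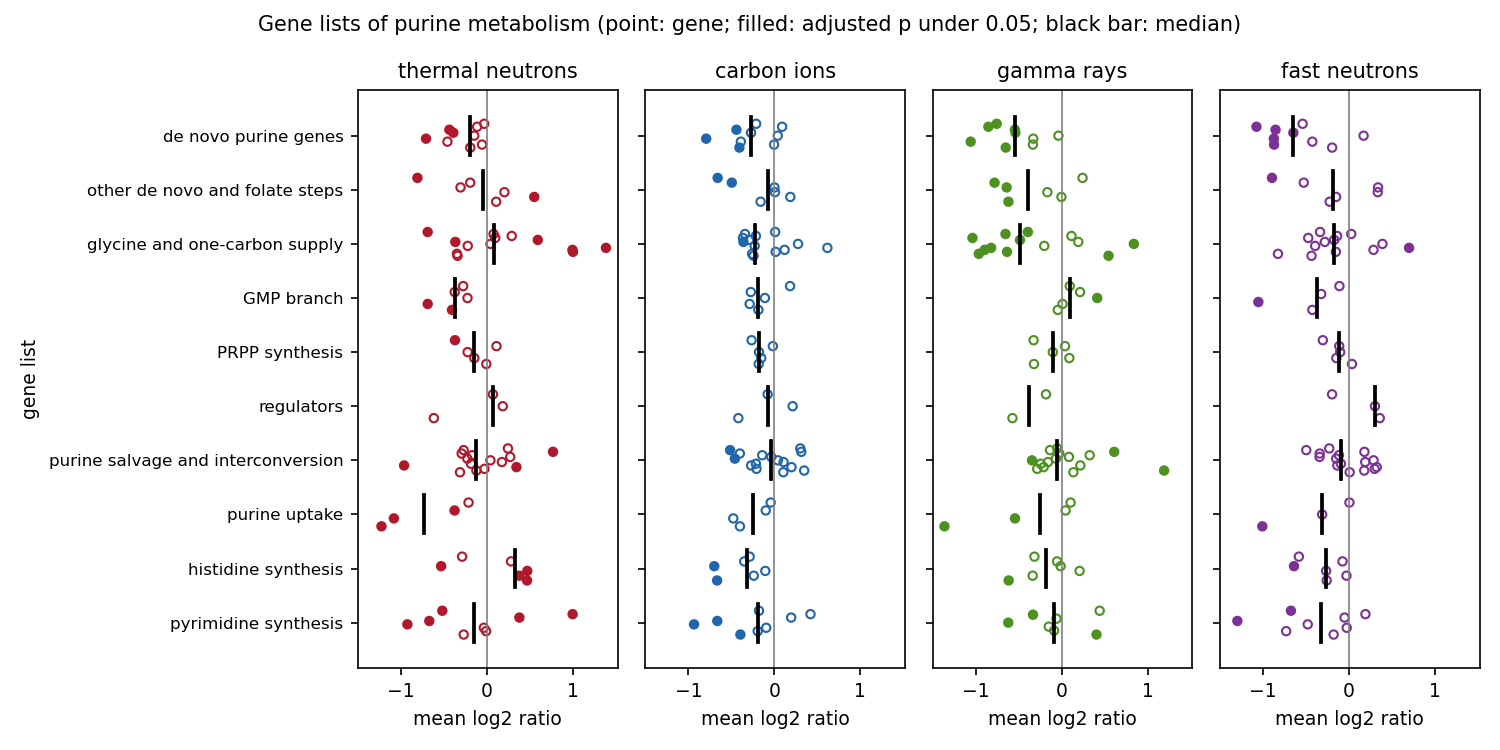
Mean log2 ratio (irradiated over control) of each gene in the purine list and in 9 lists of neighbouring pathways, after thermal neutrons, carbon ions, gamma rays and fast neutrons. Each point is a gene, filled where it passed the threshold, and black bars are list medians; the median of the purine genes lies left of 0 in all 4 panels, with 9, 7, 9 and 8 of the 9 genes left of 0, and glycine and one-carbon genes spread to both sides after thermal neutrons.

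Genes that supply glycine and one-carbon units, several of which share Bas1 control with the ADE genes, were called in both directions. After thermal neutrons 2 of 13 fell and 4 rose, and after carbon ions 1 fell. After gamma rays 8 fell and 2 rose, and after fast neutrons 1 rose. The shares of all genes that fell were 21.2, 11.9, 22.4 and 5.92 percent after thermal neutrons, carbon ions, gamma rays and fast neutrons. The shares that rose were 19.9, 9.7, 17.6 and 5.06 percent. The list median was 0.08 after thermal neutrons, -0.23 after carbon ions and -0.49 after gamma rays, beside -0.04, -0.04 and -0.06 for all genes. After fast neutrons it was -0.17, beside 0.00 for all genes. Within the list the largest differences between thermal neutrons and gamma rays were those of GCV3, GCV2 and GCV1, subunits of the glycine cleavage system, the mitochondrial complex that splits glycine to charge folate. GCV3, the lipoyl carrier protein, read 1.29, 1.55 and 1.30 after thermal neutrons, 0.46, 0.79 and 0.59 after carbon ions, and -1.72, -0.62 and -0.12 after gamma rays. All thermal neutron arrays were above all carbon ion arrays, and those above all gamma ray arrays. Of all genes, 20.2 percent had carbon ion arrays wholly above gamma ray arrays, and 27.8 percent had thermal neutron arrays wholly above them. GCV3 was 2.20 higher after thermal neutrons than after gamma rays (adjusted p = 0.00044) and 1.44 higher after carbon ions than after gamma rays (adjusted p = 0.012). Its difference of 0.77 between thermal neutrons and carbon ions did not pass the test (limma adjusted p = 0.16).

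GCV1, the T subunit, averaged 1.00 ± 0.35 after thermal neutrons, 0.01 ± 0.16 after carbon ions and -0.64 ± 0.05 after gamma rays, and the difference between thermal neutrons and gamma rays was 1.64 (adjusted p = 0.00011). GCV2, the P subunit, LPD1, the dihydrolipoamide dehydrogenase that this complex shares with others, and SHM2, the cytosolic serine hydroxymethyltransferase, were named after their values were seen. GCV2 averaged 0.99 ± 0.55 after thermal neutrons and -0.90 ± 0.39 after gamma rays. After fast neutrons GCV3 rose (0.70 ± 0.28, limma adjusted p = 0.04). GCV1 (-0.15 ± 0.12, adjusted p = 0.51) and GCV2 (0.28 ± 0.48, adjusted p = 0.37) did not pass there. LPD1 differed by -0.02 between thermal neutrons and gamma rays (95% interval -0.47 to 0.43, adjusted p = 0.94). SHM2 fell after gamma rays (-0.96 ± 0.12, adjusted p = 0.0029) and had means of -0.35 ± 0.65 after thermal neutrons (adjusted p = 0.17) and -0.26 ± 0.22 after carbon ions (adjusted p = 0.36). SER2, the phosphoserine phosphatase, fell after gamma rays (-1.04 ± 0.30, adjusted p = 0.0006), and GLY1, the threonine aldolase, fell after thermal neutrons (-0.69 ± 0.14, adjusted p = 0.00083) and gamma rays (-0.39 ± 0.09, adjusted p = 0.018).

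**Figure D4:**
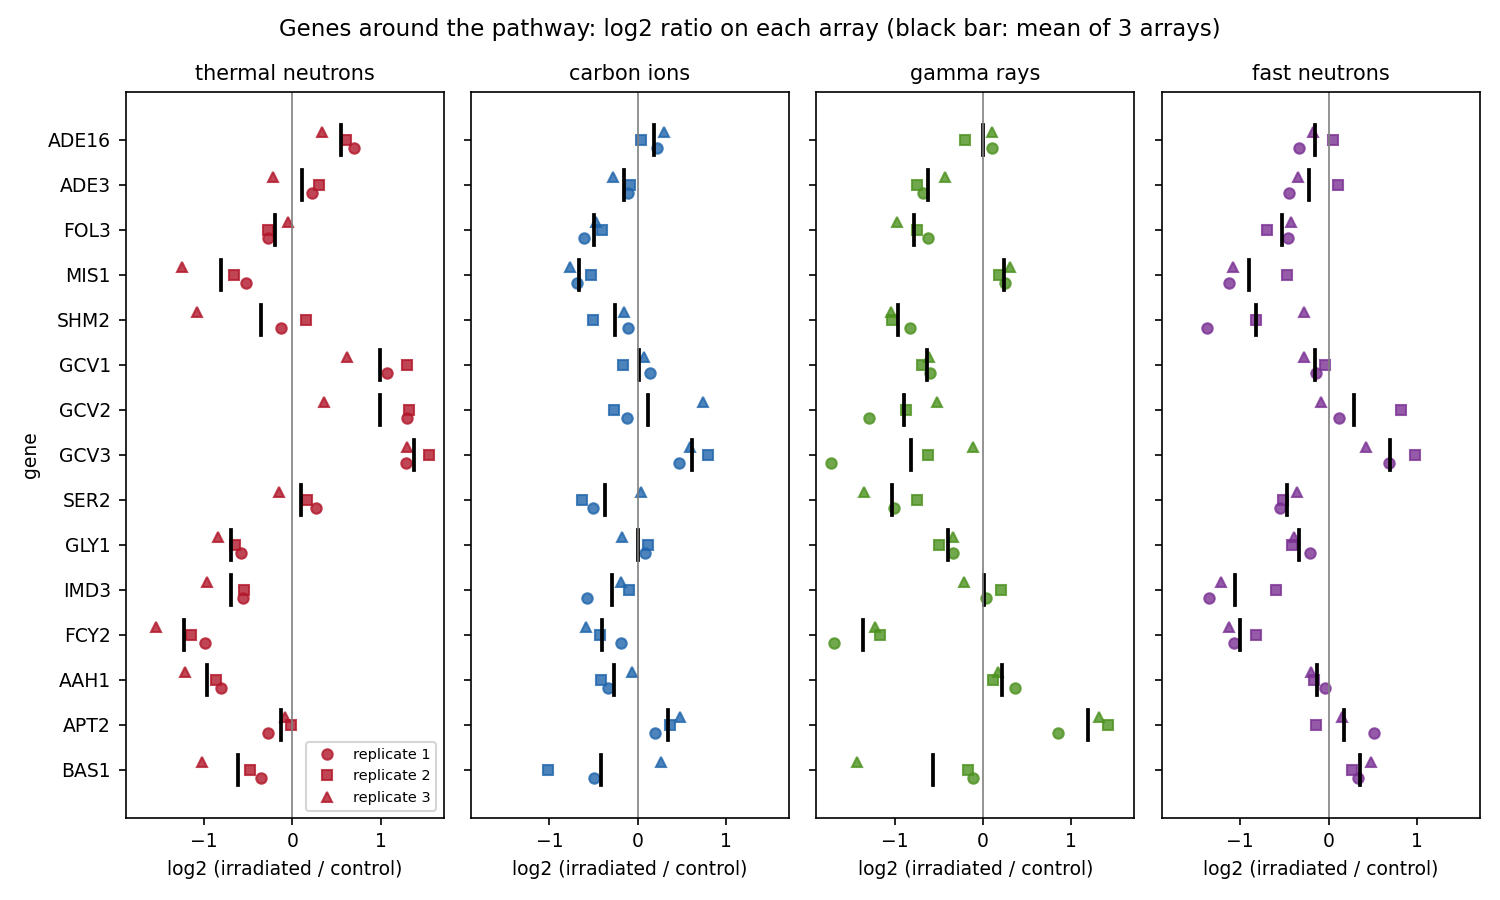
Log2 ratio (irradiated over control) of 15 genes around the purine pathway on each of 3 arrays for thermal neutrons, carbon ions, gamma rays and fast neutrons; points are arrays and black bars are means. GCV1, GCV2 and GCV3 lie right of 0 after thermal neutrons and left of 0 after gamma rays, and FCY2 lies left of 0 on all 12 arrays.

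Uptake and salvage bring ready-made purines into the same nucleotide pools. FCY2, the purine-cytosine permease, read -0.98, -1.15 and -1.55 after thermal neutrons, -0.19, -0.43 and -0.59 after carbon ions, and -1.69, -1.17 and -1.23 after gamma rays. Carbon ion arrays were all above the thermal neutron and gamma ray arrays, which overlapped. FCY2 fell after thermal neutrons (mean -1.23 ± 0.29, adjusted p = 0.00011), gamma rays (-1.36 ± 0.29, adjusted p = 7.4e-05) and fast neutrons (-1.01 ± 0.16, adjusted p = 0.016), and after carbon ions its mean was -0.40 ± 0.20 (adjusted p = 0.074). Of the 4 uptake genes measured on the first array type, 3 fell after thermal neutrons, 0 after carbon ions and 2 after gamma rays. Of 15 salvage and interconversion genes 1 fell and 2 rose after thermal neutrons, and 2 fell after carbon ions. After gamma rays 1 fell and 2 rose, and after fast neutrons 0 were called. Beside these counts, 21.2, 11.9, 22.4 and 5.92 percent of all genes fell after thermal neutrons, carbon ions, gamma rays and fast neutrons. In that order 19.9, 9.7, 17.6 and 5.06 percent rose. AAH1, the adenine deaminase, fell after thermal neutrons (-0.97 ± 0.22, adjusted p = 0.00017) and averaged 0.22 ± 0.13 after gamma rays (adjusted p = 0.19). APT2, a paralogue of the adenine phosphoribosyltransferase gene APT1, rose after gamma rays (1.19 ± 0.30, adjusted p = 8.3e-05).

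The GMP branch, which draws on IMP in parallel with ADE12, fell at 2 of 5 genes after thermal neutrons, at 0 of 5 after carbon ions and at 0 of 5 after gamma rays, where 1 rose. IMD3, an IMP dehydrogenase gene, fell after thermal neutrons (-0.69 ± 0.23, adjusted p = 0.0028) and fast neutrons (-1.06 ± 0.41, adjusted p = 0.021), and measured 0.01 ± 0.21 after gamma rays. IMD4, named after its values were seen, was the gene that rose after gamma rays (0.41 ± 0.32, limma adjusted p = 0.045). The IMD genes are similar to each other, and how far their probes separate them is not known. Of the 5 PRPP synthetase genes 1 fell after thermal neutrons and 0 were called after the other radiations. Histidine synthesis, which shares PRPP and AICAR with the purine route, had 1 of 6 genes falling and 3 rising after thermal neutrons, 2 falling after carbon ions, 1 after gamma rays and 1 after fast neutrons. Pyrimidine synthesis had 3 of 8 falling and 2 rising after thermal neutrons, and 3 of 8 falling after carbon ions. It had 2 of 7 falling and 1 rising after gamma rays, and 2 of 8 falling after fast neutrons. For all these lists, the shares of all genes falling were 21.2, 11.9, 22.4 and 5.92 percent after thermal neutrons, carbon ions, gamma rays and fast neutrons. The shares rising were 19.9, 9.7, 17.6 and 5.06 percent.

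The regulators themselves were not called after any radiation. BAS1 averaged -0.62 ± 0.36 after thermal neutrons (adjusted p = 0.09), -0.42 ± 0.64 after carbon ions (adjusted p = 0.28), -0.57 ± 0.74 after gamma rays (adjusted p = 0.11) and 0.36 ± 0.11 after fast neutrons (adjusted p = 0.15). Its spread was wide, with carbon ion arrays from -1.02 to 0.26 and gamma ray arrays from -1.43 to -0.12. PHO2 averaged 0.18 ± 0.19 after thermal neutrons and 0.21 ± 0.53 after carbon ions, and with 2 gamma ray arrays, at 1.25 and 0.14, it was not tested there.

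How far repeat readings of the same array agreed could be seen from the arrays that were scanned at high and low laser power. Both scans read the same hybridisation, so they do not show the spread between samples. Gamma ray arrays had 1 scan and are not covered. Of 81 gene and array pairs, 77 had both scans and 4 had 1. The scans differed by a median of 0.114 log2 units and by at most 0.917, for ADE17 on fast neutron replicate 2, at -0.40 in the high-power scan and -1.31 in the low-power scan. That array had a median gap of 0.383 over the purine genes, and its scans correlated at r 0.693 over all probes, close to the 0.698 of carbon ion replicate 3, with the other arrays between 0.845 and 0.962. By the low-power scan alone of that array, a choice made after seeing the data, 7 of the 9 purine genes passed the test after fast neutrons, while calls over all genes numbered 1300 in place of 542.

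**Figure D5:**
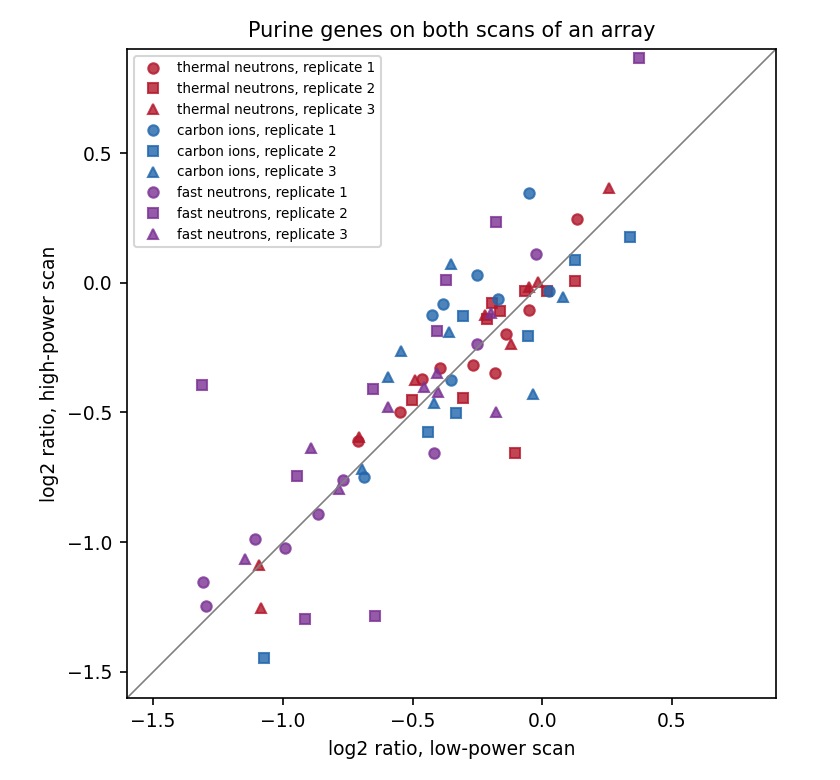
Log2 ratio (irradiated over control) of the measured purine genes in the high-power scan against the low-power scan, for thermal neutrons, carbon ions and fast neutrons; each point is 1 gene on 1 array and the line marks equal values. Points of fast neutron replicate 2 lie farthest from the line, with a median gap of 0.383.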

How the data were processed

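RNA of irradiated cells (Cy5) and control cells (Cy3) was hybridised together. The deposited values are log2 ratios which the authors normalised by LOWESS from spots with flag value 0, per the labels; log base 2 was read from the values and the direction from the channel order. Scanner and software settings are not given in the sources used here. Of 6912 probes, 5446 on the first array type and 5513 on the second carried 1 gene symbol in the platform annotation; the others were not named. High- and low-power scans of an array were averaged per probe, and probes per gene. Gamma ray arrays had 1 scan. Fits used limma 3.58.1 in R 4.3.3 (lmFit, eBayes): 9 arrays together for thermal neutrons, carbon ions and gamma rays, with contrasts between them, and the 3 fast neutron arrays alone. Genes needed values on 3 arrays of each group, and Benjamini-Hochberg adjustment covered all such genes. Intervals are 95%. The fits were tested on simulated data. Alternatives were scaling, scan, probe summary, missing values, array weights, separate fits, replicate block and each replicate left out. Replicates are stated to be independent collections. The p-values rest on the spread between replicates, moderated across genes and, on the first array type, pooled over the 3 groups. They therefore do not follow the SD printed for 1 group. Residuals of same-numbered arrays correlated at -0.263 to 0.131 over 9 pairs, so the numbers were not taken to pair samples.

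Members and lists were chosen with earlier results of these data known. Named genes were all members, up to 4 genes per list with the smallest p in any comparison, ADE3, ADE16, BAS1 and PHO2, and the 8 genes with the highest correlation with the mean of the members; of these the text describes those that bear on the pathway.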

Additional observations from a re-analysis of the deposited data

Results flagged for a closer look

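These differences between radiations passed the limma test of the difference itself, and are given for named genes only. Other genes of the lists around the pathway passed too. Among them were SER1, SER33, SHM1, MET13, MET12 and IMD4 for thermal neutrons minus gamma rays. DFR1, SHM1 and MET12 were among those for carbon ions minus gamma rays, and SER1 was among those for thermal neutrons minus carbon ions. Among the purine genes, ADE17 differed by 0.94 between carbon ions and gamma rays and by 0.74 between thermal neutrons and gamma rays, MTD1 by 0.72 and ADE1 by 0.46 between thermal neutrons and gamma rays, each lower after gamma rays.

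Of the genes around the pathway, thermal neutrons minus gamma rays gave 2.20 for GCV3, 1.89 for GCV2, 1.64 for GCV1, 1.13 for SER2, 0.73 for ADE3, 0.58 for FOL3, 0.55 for ADE16, -0.70 for IMD3, -1.05 for MIS1, -1.18 for AAH1 and -1.31 for APT2. Carbon ions minus gamma rays gave 1.44 for GCV3, 1.01 for GCV2, 0.96 for FCY2, 0.65 for GCV1, -0.84 for APT2 and -0.90 for MIS1. Thermal neutrons minus carbon ions gave 0.98 for GCV1, -0.69 for AAH1, -0.70 for GLY1 and -0.83 for FCY2. Among carbon ions minus gamma rays, the GCV2 call held in 4 of 15 other settings and the GCV1 call in 9 of 15. Among thermal neutrons minus carbon ions, AAH1 held in 8, FCY2 in 9, GLY1 in 10 and GCV1 in 13 of 15. The radiations differed in dose, exposure time and facility as well, and these cannot be told apart. With 3 arrays a group, single arrays were not screened for outliers.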

How the results depend on the processing

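The number of purine genes called after gamma rays stayed at 5 to 6 when each replicate was left out, beside 6. After thermal neutrons it was 1 when all arrays were given an equal spread and 1 to 2 with a replicate left out, beside 3. After carbon ions it was 0 with that radiation fitted alone (4 had an unadjusted p under 0.05) and 0 to 2 with a replicate left out, beside 3. After fast neutrons it was 0 with the high-power scan only (6 unadjusted) and 0 to 7 with a replicate left out, beside 5. Carbon ions minus gamma rays gave 2 with array weights and 1 to 2 with a replicate left out, beside 1. Thermal neutrons minus gamma rays gave 1 to 3 with a replicate left out, beside 3. Thermal neutrons minus carbon ions gave 0 throughout. With the replicate number as a block, which was not taken to pair samples, the counts were 6 after gamma rays, 3 after carbon ions, 3 after thermal neutrons, 1, 2 and 0 in the contrasts in the order above. The causes of these changes were not tested.

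Over all genes, calls after carbon ions numbered 1102, but 2142 with array weights, 404 when fitted alone, and 399 and 371 without replicate 1 and replicate 2. After thermal neutrons they numbered 2180, but 1445 without replicate 3. After fast neutrons they numbered 542, but 38 by the high-power scan, 1303 by the low-power scan, 1732 with array weights, and 68, 1652 and 62 without replicates 1, 2 and 3. Carbon ions minus gamma rays gave 986 calls, but 1746 with array weights, 567 without gamma ray replicate 3 and 540 without carbon ion replicate 1. Thermal neutrons minus carbon ions gave 512, but 1590 with array weights and 193 to 249 without replicate 1 or replicate 2 of either group. Array brightness was not among the values used, so signal over background could not be given.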
